A study of Rattus norvegicus with 3 samples.

Results

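The genes described here encode 10 enzymes that make, convert or break down sphingomyelin and ceramide, the central lipids of sphingolipid metabolism. They were measured in M13, a line of rat cells reprogrammed to pluripotency (induced pluripotent stem, or iPS, cells), against RNA of cultured adult rat cells, on 3 two-colour whole-genome arrays. Probes were chosen by gene name. That rule found 8 of the 10 genes with 12 probes (Smpd1, Smpd2, Smpd3, Asah1, Ugcg, Sphk1, Sgpl1 and Sptlc1). The other two were found through the RefSeq accession of their probes, since the array lists Sgms1 as Tmem23 and the Sptlc2 probe under the name Pomt2, so that 15 of 41012 probes entered the account. Smpd3 was picked because an earlier look at these arrays had shown it far higher in iPS M13 RNA, and the rest because they belong to its pathway. The contrast therefore chose the genes, and their values are given as a description with no test.

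The 3 iPS M13 samples, untreated and labelled with Cy3, form the only group. The cells were grown on irradiated mouse embryonic fibroblast feeders in medium with serum and serum replacement. Each array also carried mix1, labelled with Cy5, a mixture of adult rat cells, namely bone marrow cells and primary ear fibroblasts, each cultured in medium with fetal bovine serum. The study asked how gene expression in the iPS cells differs from that of these adult cells. No dye was swapped, so dye and cell type cannot be told apart. mix1 was 1 control RNA, and its own spread between cultures is left out of every error. The labels call the 3 samples repeats and do not say that they came from separate cultures, so errors and p-values cover no more than the spread of these samples, and that spread may be technical.

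Sphingolipids are built from serine and a fatty acyl-CoA by serine palmitoyltransferase, and the chain of reactions that follows ends in ceramide. Ceramide is the branch point: it can receive a phosphocholine head to give sphingomyelin, or a glucose to start the glycosphingolipids. Sphingomyelinases return sphingomyelin to ceramide at acid pH in lysosomes or at neutral pH at other membranes. Ceramidases free sphingosine, sphingosine kinases phosphorylate it to the signalling lipid sphingosine 1-phosphate, and a lyase then removes that lipid from the pathway for good.

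The lines below give 1 probe sequence for each of 4 genes, namely Smpd3 and each other enzyme with a probe that is split in the genome. The genes are the neutral sphingomyelinase with the high iPS signal (Smpd3), a sphingomyelinase and a ceramidase that were lower than in mix1 (Smpd2 and Asah1), and a subunit of serine palmitoyltransferase that lay nearer to the level in mix1 (Sptlc1). The sequences are written 5′ to 3′ in lower case as deposited in the array files. For Smpd3 and Smpd2 this is the only probe, whereas Asah1 and Sptlc1 each had a brighter probe that stood for the gene and whose values are given separately. The Smpd3 line holds the first 30 bases of a 60-base probe, and the others are whole.
Smpd3: agacacccaaggttttggtaaaacattatc
Smpd2: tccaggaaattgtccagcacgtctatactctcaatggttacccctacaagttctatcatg
Asah1: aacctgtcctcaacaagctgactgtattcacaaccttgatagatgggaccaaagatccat
Sptlc1: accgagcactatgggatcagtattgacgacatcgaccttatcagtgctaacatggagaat
In build rn3, which the file headers use, the Smpd3 probe lies at chr19:36117159-36117218 on the minus strand. The Smpd2 probe lies at chr20:45473417-45473583 on the minus strand, a span of 167 bases for 60 bases of probe. The Asah1 probe shown lies at chr16:54308987-54310068 on the plus strand and spans 1082 bases. The Sptlc1 probe shown lies at chr17:17604002-17605000 on the plus strand and spans 999 bases. Probes whose span exceeds their length are split in the genome, as a sequence that crosses a splice junction is. Exons and untranslated regions of rn3 were not used here.

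Per array, 53.5% to 60.8% of probes were well above background in iPS M13 RNA and 52.4% to 61.0% in mix1. Median spot signals were 272 to 291 in iPS M13 and 228 to 254 in mix1, against negative control medians of 76.0 to 77.4 and 60.9 to 63.7. All ratios below are log2 of iPS M13 over mix1 after background correction and loess normalization within each array. A gene is called if limma's Benjamini-Hochberg adjusted p is under 0.05 and the difference is at least 2-fold (a log2 ratio of at least 1 in size). The rule called 44.2% of the 20342 genes tested, namely 18.8% of the genes as higher and 25.4% as lower in the iPS cells. Array names that matched no RefSeq gene were counted as genes in these shares. All 10 enzymes passed the filter on dim probes. One of them, Smpd3, lay past the call rule on the higher side and 5 on the lower side (Smpd1, Smpd2, Asah1, Sphk1 and Sgpl1), and 4 lay within it (Sptlc1, Sptlc2, Sgms1 and Ugcg). Since the contrast chose them, nothing is read from these counts beside the background. Their median log2 ratio was -1.21, and 9 of 10 were below 0 after loess, 3 of which changed sign under other scalings described below, beside a median of -0.02 over all genes tested, with 10318 of 20342 below 0. In RNA from whole cultures, fewer cells of a type and less RNA per cell cannot be told apart.

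**Figure D1:**
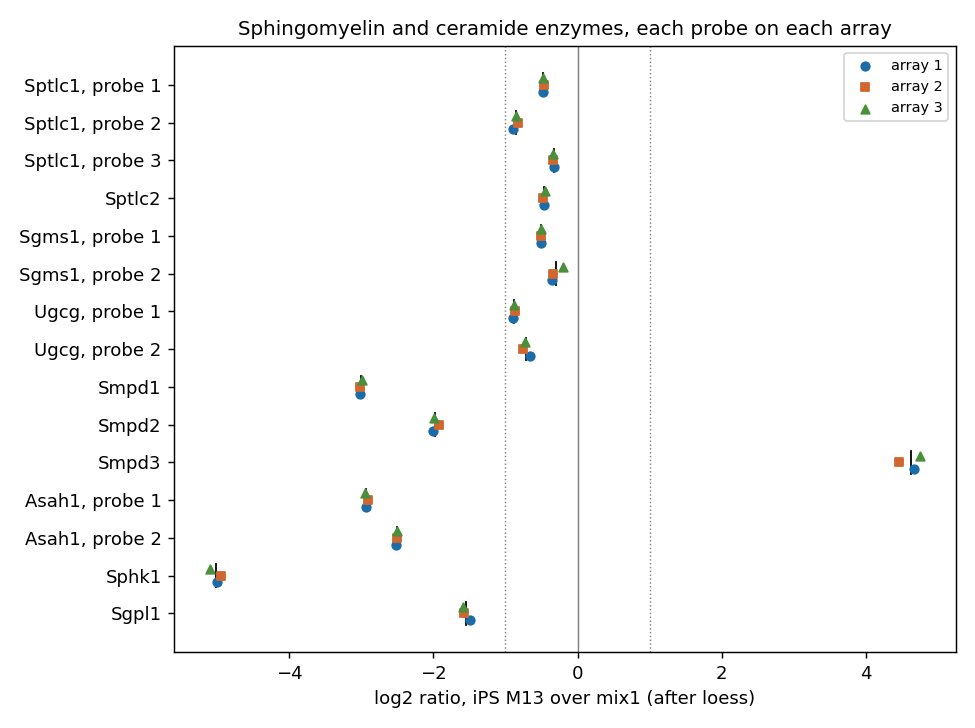
Log2 ratio of iPS M13 over mix1 after loess (horizontal axis) for each of the 15 probes, with a symbol for each of the 3 arrays and a black line at the mean; dotted lines mark 2-fold. Smpd3 stands between 4.46 and 4.75, Sphk1 between -5.10 and -4.95, and the Sptlc1, Sptlc2, Sgms1 and Ugcg probes between -1 and 0.

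Smpd3 encodes neutral sphingomyelinase 2, a membrane enzyme that cuts sphingomyelin to ceramide and is known for its part in the release of exosomes. Its probe gave spot signals of 9424, 10010 and 9947 in iPS M13 RNA of replicates 1, 2 and 3. In mix1 the same spots gave 212, 218 and 204. Both RNAs were well above background on 3 of 3 arrays. The log2 ratios were 4.66, 4.46 and 4.75, a mean of 4.62 ± 0.15 (SD, n = 3), which is 24.7-fold. Smpd3 stood at rank 28 from the highest of 20342 genes. Its size moved with the processing: the log2 ratio was 5.83 from the scanner software's processed signals, 5.43 after median centring and 4.26 once the trend of the ratios on probe GC content was taken off. At 35% GC its probe is poor in G and C, and log2 ratios fell by 0.43 to 0.45 for each 10% of GC on the 3 arrays.

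The other 2 sphingomyelinases lay on the opposite side. Smpd1, the acid sphingomyelinase of lysosomes, gave spot signals of 12866, 14343 and 14345 in iPS M13 and 68796, 84414 and 73870 in mix1. Its log2 ratios were -3.02, -3.02 and -2.99, a mean of -3.01 ± 0.02 (SD, n = 3), or 8.05-fold lower. Whether its bright mix1 spots were saturated was not checked. The probe lies at chr1:163378068-163378127 on the plus strand of rn3. Smpd2 encodes another neutral sphingomyelinase, a membrane protein of the endoplasmic reticulum. It gave dimmer spots, 446, 488 and 487 in iPS M13 and 1116, 1265 and 1136 in mix1. Its log2 ratios were -2.01, -1.92 and -1.99, a mean of -1.97 ± 0.05 (SD, n = 3), or 3.92-fold lower. These 2 neutral sphingomyelinases thus differed in direction on each array: Smpd3 was higher in iPS M13 and Smpd2 lower on 3 of 3. Smpd4, also a neutral sphingomyelinase, is described below.

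Asah1, the acid ceramidase that frees sphingosine from ceramide in lysosomes, had a pair of probes. The brighter one, at chr16:54310488-54310547, gave 1942, 2386 and 2201 in iPS M13 and 8374, 10914 and 9158 in mix1. The probe printed above gave 1696, 1937 and 1864 in iPS M13 and 5487, 6770 and 5697 in mix1. The mean log2 ratios of the pair were -2.93 ± 0.03 and -2.51 ± 0.01 (SD, n = 3 each), or 7.61-fold and 5.71-fold lower. The probes pointed the same way and differed from each other by more than the spread between arrays.

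**Figure D2:**
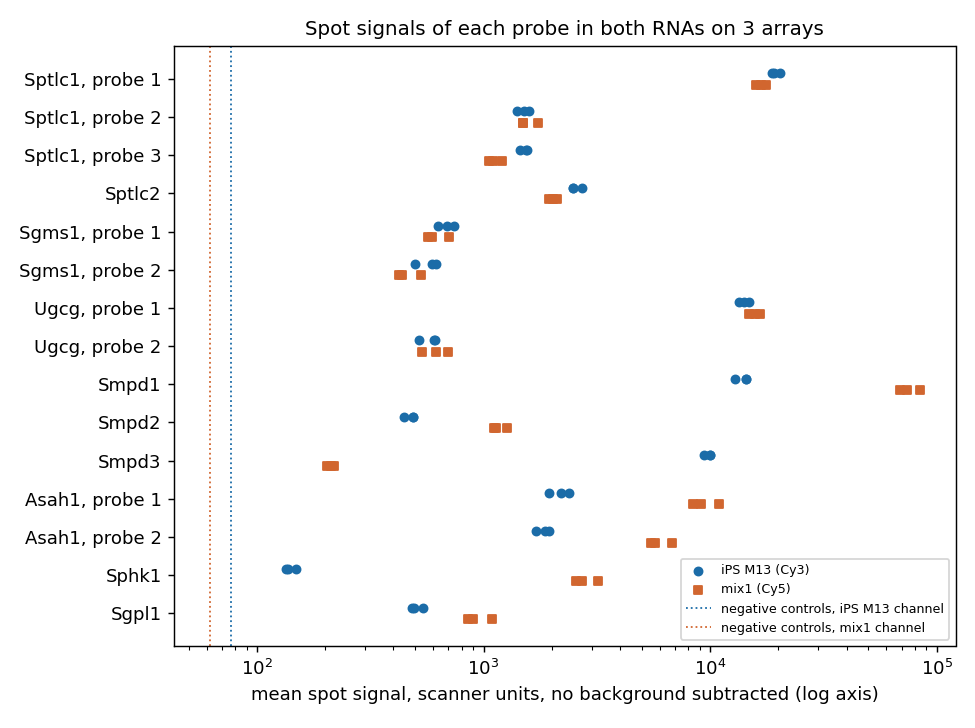
Mean spot signal in scanner units, on a log axis and with no background subtracted, for each probe in iPS M13 RNA (circles) and mix1 RNA (squares) on 3 arrays; dotted lines give the mean of the negative control medians of each channel. The Smpd3 spots are at 9424 to 10010 in iPS M13 and at 204 to 218 in mix1, while the iPS M13 signals of Sphk1, 134 to 149, are the closest to the negative controls.

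Sphk1 and Sgpl1, whose products make and degrade sphingosine 1-phosphate, were both lower in iPS M13. Sphk1, the kinase, gave spot signals of 134, 149 and 137 in iPS M13, not well above background on any of the 3 arrays. In mix1 it gave 2568, 3192 and 2719. The fold is therefore a bound: set against the lowest signal well above background on each array, or the probe's own signal where that was higher, Sphk1 was at least 25.9-fold lower in iPS M13. The measured log2 ratios were -5.00, -4.95 and -5.10, a mean of -5.02 ± 0.07 (SD, n = 3). With the processed signals the measured log2 ratio was -6.42. These sizes rest on iPS M13 signals close to background, and the bound holds on the loess scale only, as do the other bounds below. The probe lies at chr10:106659198-106659257 on the plus strand.

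Sgpl1, the lyase that degrades sphingosine 1-phosphate, differed less. It gave 481, 538 and 491 in iPS M13 and 854, 1091 and 895 in mix1. The log2 ratios were -1.49, -1.57 and -1.59, a mean of -1.55 ± 0.05 (SD, n = 3), or 2.93-fold lower. It lost the call under median centring, at a log2 ratio of -0.92, and with no within-array normalization, at -0.97. Its probe lies at chr20:28473675-28473734 on the minus strand.

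The enzymes at the start of the pathway and at its branch point lay within 2-fold of mix1 after loess. Sptlc1 and Sptlc2 encode subunits of serine palmitoyltransferase, which catalyses the first step. The brightest Sptlc1 probe, at chr17:17614111-17614170, gave 18714, 19212 and 20268 in iPS M13 and 15958, 17591 and 16797 in mix1, with log2 ratios of -0.48, -0.47 and -0.48 after loess, a mean of -0.48 ± 0.01 (SD, n = 3). The probe printed above gave 1399, 1586 and 1510 in iPS M13 and 1497, 1744 and 1492 in mix1, so that its signals overlapped between the RNAs, with a mean log2 ratio of -0.86 ± 0.03. The third probe, at chr17:17585215-17585274, had a mean log2 ratio of -0.33 ± 0.01. Sptlc2 gave 2478, 2487 and 2724 in iPS M13 and 1945, 2108 and 2016 in mix1, and a mean log2 ratio of -0.46 ± 0.01 (SD, n = 3). Its only probe lies at chr6_random:1442224-1442283 on the plus strand. The array names that probe Pomt2, so the gene it measured is less sure than for the others. None of these 4 probes reached 2-fold.

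Sgms1 encodes the sphingomyelin synthase of the Golgi, which transfers phosphocholine onto ceramide. Its brighter probe, at chr1:236297210-236297269, gave 628, 740 and 687 in iPS M13 and 569, 703 and 594 in mix1, with a mean log2 ratio of -0.50 (SD 0.0009, n = 3). The other, at chr1:236297440-236297499, gave a mean log2 ratio of -0.30 ± 0.08. Ugcg encodes glucosylceramide synthase, the entry to the glycosphingolipids. Its brighter probe, at chr5:77300414-77300473, gave 13445, 14068 and 14824 in iPS M13 and 14897, 16630 and 15756 in mix1, with log2 ratios of -0.89, -0.87 and -0.88, a mean of -0.88 ± 0.01 (SD, n = 3). The dimmer Ugcg probe, at chr5:77296886-77296945, gave a mean log2 ratio of -0.71 ± 0.05. Ugcg passed the call rule, at a log2 ratio of -1.02, only after the GC trend was taken off.

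The direction of 3 of these near-level enzymes depended on the scaling. Before normalization the spots of Sptlc2, of Sgms1 and of the brightest Sptlc1 probe were brighter in the iPS M13 channel on each array. Median centring shifted the median of all genes by 0.60 and gave log2 ratios of 0.26 for Sptlc1, 0.37 for Sptlc2 and 0.12 for Sgms1. With no within-array normalization, which shifted that median by 0.54, they were 0.21, 0.32 and 0.06. No direction is therefore stated for these genes. Smpd1, Smpd2, Smpd3, Asah1 and Sphk1 kept their direction and their call in each setting run in which they were measured, at log2 ratios of -2.39, -1.32, 5.43, -2.07 and -4.43 after median centring. The number of the 10 enzymes called lower was 4 to 6 over the settings, and Smpd3 was the single one called higher.

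**Figure D3:**
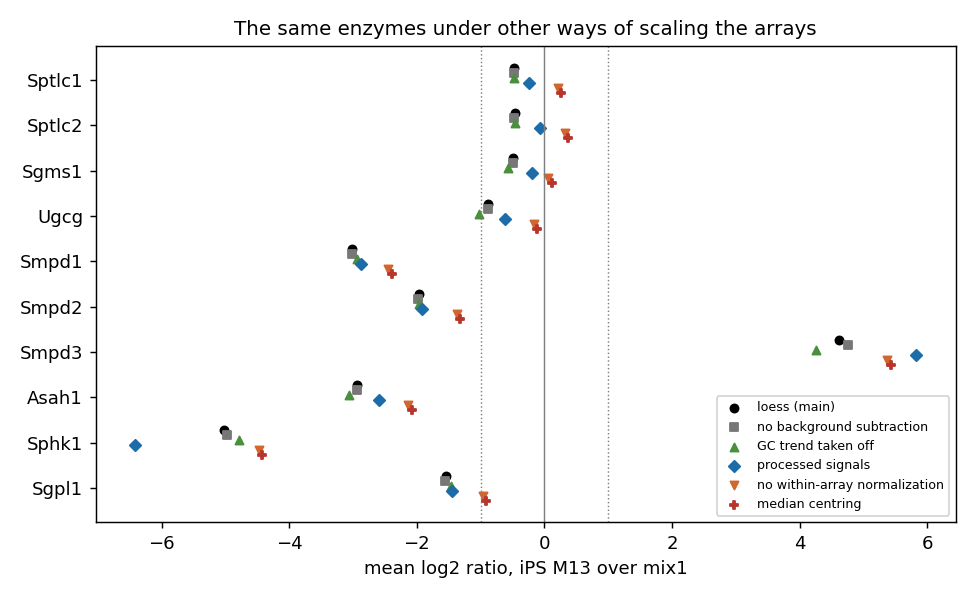
Log2 ratio (mean of 3 arrays, iPS M13 over mix1) for the 10 enzymes under loess and 5 other ways of scaling or correcting the arrays; dotted lines mark 2-fold. Sptlc1, Sptlc2 and Sgms1 move across 0 under median centring and with no within-array normalization, whereas Smpd3 remains above 4 and Smpd1, Smpd2, Asah1 and Sphk1 remain below -1.

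The rest of the pathway was followed in 68 further sphingolipid genes, of which 57 had a probe and 43 were measured. None was called higher and 22 were called lower, beside 18.8% and 25.4% of all genes tested. Their median log2 ratio was -1.04, with 35 of 43 below 0, against -0.02 over all genes. The other 8 lay between 0 and 0.91, each with an unadjusted limma p under 0.05 but less than 2-fold. The absence of higher calls depended on the scaling: 6 of the 43 were called higher after median centring, 4 with no within-array normalization and 3 with the processed signals or the authors' value table, beside 36.4%, 34.4% and 31.1% of all genes in those settings. The 22 lower genes were spread over each of the 7 roles, and 20 of them were called lower in every setting where they were measured. With both RNAs required above background, 38 were measured and 19 called lower, beside 21.9% of all genes in that setting. The counts by role that follow are over 2 to 10 genes each and stand beside the same 25.4% of all genes called lower, so that nothing about a role is read from them. Adjusted p-values in the next paragraphs are limma's with Benjamini-Hochberg adjustment over all genes tested, and each mean is over 3 arrays.

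Among 7 measured genes of de novo synthesis, 3 were lower and none was called higher. Ormdl3, which encodes a protein that restrains serine palmitoyltransferase, fell by 1.74 on the log2 scale (SD 0.06, adjusted p = 6.00e-06). Cers2, the ceramide synthase for very long acyl chains, had a log2 ratio of -1.66 ± 0.03 (adjusted p = 2.47e-06), but lost the call after median centring, at -0.83, and with no within-array normalization, at -0.88. Degs1, the desaturase that completes ceramide, fell by 1.60 (SD 0.03, adjusted p = 2.38e-06). The step after serine palmitoyltransferase is made by the product of Kdsr, which lay at -0.90 ± 0.02 and was not called. The other Kdsr probe read -1.12, past 2-fold.

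Of 7 genes for sphingomyelin synthesis and ceramide transfer, 2 were lower, a share near the 25.4% over all genes tested. Cptp, a ceramide 1-phosphate carrier, fell by 2.43 (SD 0.01, adjusted p = 8.12e-07). Sgms2, the sphingomyelin synthase of the plasma membrane, fell by 2.18 (SD 0.09), and was well above background in iPS M13 on 2 of 3 arrays. It passed the filter on dim probes through mix1 alone, so no p is given for it. Cert1, which carries ceramide to the Golgi, lay at 0.71 ± 0.05 and was not called. It was called higher after median centring, at 1.28, with no within-array normalization, at 1.22, and with the processed signals, at 1.16. Its other probe read 0.22 after loess.

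The further genes of sphingomyelin breakdown give the setting for Smpd3. Of 3 measured, Smpdl3a, an acid sphingomyelinase-like phosphodiesterase, fell by 1.94 (SD 0.02, adjusted p = 1.20e-06). Smpd4, another neutral sphingomyelinase, lay at 0.55 ± 0.05, and its other probe read 0.29. Smpdl3b, a membrane-anchored relative of Smpd1, lay at 0.91 ± 0.01. Both genes were short of 2-fold after loess and past it after median centring, at 1.20 and 1.75, and with the processed signals, at 1.02 and 1.38. Smpd3 at 4.62 was the only one of the 6 measured genes of this role, including Smpd1 and Smpd2, past 2-fold on the higher side after loess.

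Ceramide breakdown had 2 further measured genes. Asah2, the neutral ceramidase, was not well above background in iPS M13 on any array and was at least 4.46-fold lower there (log2 ratio -2.35 ± 0.10). It passed the filter on dim probes through mix1 alone, so no p is given for it. Acer3, an alkaline ceramidase gene, lay at -0.40 ± 0.04 and was not called.

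Glycosphingolipid synthesis, downstream of Ugcg, had 4 lower genes of 7 measured. B3galnt1, which adds the fourth sugar of the globo series, fell by 4.19 (SD 0.03, adjusted p = 6.56e-07), and its other probe read -3.90. The ganglioside sialyltransferase gene St3gal2 fell by 2.92 (SD 0.03, adjusted p = 9.68e-07). B4galnt1, the GM2 and GD2 synthase, fell by 2.45 (SD 0.06), and was well above background in iPS M13 on 2 of 3 arrays. It too passed the filter through mix1 alone, so no p is given for it.

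Glycosphingolipid breakdown takes place mostly in lysosomes, and 8 of its 10 measured genes were lower, with a median log2 ratio of -2.40. Psap, the precursor of the saposins that present lipids to lysosomal hydrolases, fell by 3.68 (SD 0.00, adjusted p = 6.22e-07). The GM2 activator gene Gm2a fell by 3.28 (SD 0.00, adjusted p = 6.22e-07). Arsa, the arylsulfatase that removes sulfate from sulfatide, fell by 3.10 (SD 0.04, adjusted p = 1.13e-06), and its other probe read -2.96. The smallest called difference was that of Gla, the alpha-galactosidase, at -1.04 ± 0.05, and that call was lost after median centring (-0.24), with no within-array normalization (-0.30) and with the processed signals (-0.70).

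Of the 7 further genes around sphingosine 1-phosphate, 3 were lower. Plpp3, a membrane phosphatase that dephosphorylates it and related lipids, had the lowest value of the whole pathway: it fell by 6.13 (SD 0.10, adjusted p = 1.24e-06), and its other probe read -6.01. S1pr2, a receptor for the lipid, fell by 4.82 (SD 0.15, adjusted p = 3.48e-06). Plpp1, a relative of Plpp3, fell by 3.12 (SD 0.01, adjusted p = 6.30e-07). Sphk2, the other sphingosine kinase gene, lay at -0.71 ± 0.01 and was not called.

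**Figure D4:**
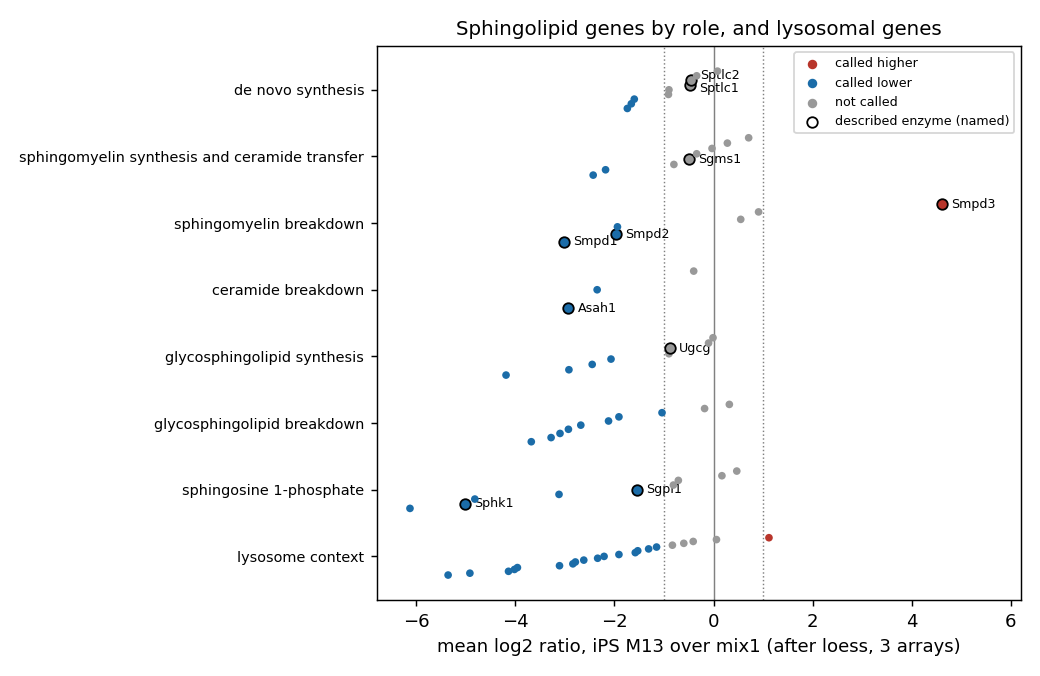
Log2 ratio (mean of 3 arrays, iPS M13 over mix1) for each measured sphingolipid gene by its role, and for lysosomal genes; red, blue and grey mark genes called higher, called lower and not called, dotted lines mark 2-fold, and the 10 enzymes are ringed and named. Smpd3 is the only red point among the sphingolipid roles, and 16 of 21 lysosomal genes are blue.

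Smpd1 and Asah1 work in lysosomes, and most other lysosomal genes measured were lower in iPS M13 as well. Of 21 measured lysosomal genes outside the sphingolipid list, 16 were called lower and 1 higher, beside 25.4% and 18.8% of all genes tested, with a median log2 ratio of -2.21 and a range from -5.36 (Ctsb, a cathepsin) to 1.12 (Ctsz, another cathepsin). The lower calls were 12 after median centring and with no within-array normalization, where 17.8% and 18.4% of all genes were called lower. The summed spot signal of these genes above local background was 154157 to 157547 in iPS M13 and 899147 to 953302 in mix1. Their part in the Smpd1 and Asah1 values was not tested.

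Markers of the cell types mixed in mix1 were lower in iPS M13 as well. All 13 fibroblast markers were lower in iPS M13, from -10.79 (Col3a1) to -4.77 (Pdgfra), with summed signals of 24432 to 26865 in iPS M13 and 2107679 to 2324888 in mix1, and Postn and Thy1 were not well above background in iPS M13. Of 12 marrow and macrophage markers listed, 11 had a probe and 10 were measured. All 10 were lower, from -7.49 (Cd14) to Ptprc, which was at least 1.84-fold lower. Their summed signals were 5241 to 5684 in iPS M13 and 243666 to 283768 in mix1, and Ptprc and Ctss were not well above background in iPS M13. Of 12 pluripotent cell markers listed, 8 had a probe and 6 were measured. Dnmt3l and Esrrb had a probe but were not among those measured. Of the 6 measured, 5 were called higher, up to Epcam at 4.72, and Lin28a lay at -0.15. The summed signals of the 6 were 30661 to 33482 in iPS M13 and 1348 to 1454 in mix1, and Pou5f1 was not well above background in mix1. The part of the cell mixture, and of RNA from the mouse feeder cells, in the enzymes' values was not tested.

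Only genes with a gene symbol, not a placeholder name on the array, were ranked by their likeness to Smpd3. The genes whose 3 log2 ratios lay nearest to those of Smpd3, by Euclidean distance over 3 arrays, were Serpini1, Kcnk10, Epcam, Nppb and Chgb. Their mean log2 ratios were 4.65 for Serpini1, which encodes neuroserpin, 4.54 for Kcnk10, a potassium channel, 4.72 for Epcam, an epithelial adhesion molecule, and 4.66 for Nppb, a natriuretic peptide. Chgb, a secretory granule protein, was not well above background in mix1 on any array, so it is given as a bound, at least 22.7-fold higher in iPS M13. That bound is weak. The lowest log2 mix1 signal well above background was 4.72 on replicate 2, against 7.35 and 7.14 on replicates 1 and 3. The distances of the first 4 ran from 0.0759 for Serpini1 to 0.194 for Nppb. All 5 were well above background in iPS M13 on 3 of 3 arrays. In mix1 only Nppb was, like Smpd3, well above background on 3 of 3 arrays. Serpini1 and Epcam were on 2 and Kcnk10 on 1, so their ratios, and their likeness to Smpd3, rest partly on mix1 signals near background.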

How the data were processed

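Total RNA of 3 iPS M13 samples (Cy3) and mix1 (Cy5) was measured on 3 two-colour rat arrays. The authors deposited spot intensities from Agilent Feature Extraction 9.5.3.1, named in the submitters' processing notes and, with its version, in the file headers; local background was given separately and not subtracted. The log10 ratios in those files are Cy5 over Cy3 of the software's processed signals, per the file headers. In a separate table of values the authors gave log2 ratios, and set against the log10 ratios these had slopes of -3.32, so the table was read as Cy3 over Cy5, with medians of -0.0413, -0.0282 and -0.0286, and its centring is unknown.

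Mean spot signals were corrected by normexp (offset 50) and normalized by loess within arrays, with limma 3.58.1 in R 4.3.3, giving control spots no weight. Spots marked as outliers (205, 263 and 192) were left out. A probe stayed in if it was well above background on each of the 3 arrays in 1 and the same channel (24178 kept, 16834 not), and the brightest stood for its gene. Ratios were tested against 0 with lmFit and eBayes. The fit was tested on simulated data with independent noise around 0 and 200 of 20342 genes changed. It recovered 198 of them, with 0 false calls. Such data cannot speak to the normalization or to whether the repeats were technical. Probe names were updated through a RefSeq table: of 41012 probes, 5577 matched through their symbol and 3730 through a synonym, while 10735 did through an accession, 48 through a further one and 1219 through a gene ID. The other 19703 probes kept a name given on the array, and each distinct name was counted as a gene. Array number limits the precision. The alternatives tried were median centring, no within-array normalization, no background subtraction, processed signals, the authors' value table, a GC trend taken off, other filters, the mean over probes and each array left out.

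The genes and lists were chosen with earlier results of these data known. Named were all 10 enzymes, up to 3 called genes per role and direction with the largest ratios, the highest and lowest gene of each lysosomal or marker list, and the 5 genes with a symbol nearest to Smpd3. Kdsr, Cert1, Smpd4, Smpdl3b, Acer3, Gla, Sphk2, Postn, Thy1, Ctss, Pou5f1, Dnmt3l and Esrrb were named after their results were seen.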

Additional observations from a re-analysis of the deposited data

How the results depend on the processing

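Of 119 values of the 10 enzymes under other settings, 116 kept their call and 6 turned sign, all of genes that were not called. These values are not independent: the authors' value table gave the same log2 ratios as the processed signals. For enzymes with 1 probe, the other filters and the mean over probes returned the loess value or none. The number of genes called higher, 3819 after loess, was 7409 after median centring, 7005 with no within-array normalization, and 6319 with the processed signals and with the authors' value table. Calls on the higher side were thus 42.5%, 67.2%, 65.1%, 56.6% and 56.6% of all calls. In the same order of settings the further sphingolipid genes had 0, 6, 4, 3 and 3 higher calls, and Smpd3 had log2 ratios of 4.62, 5.43, 5.37, 5.83 and 5.83. Smpd3 was at 4.26 once the GC trend was taken off. Sphk1 gave no value where both RNAs had to be above background. Leaving out 1 array in turn gave 3742 to 3910 genes higher, 5125 to 5206 lower, 1 and 5 of the 10 enzymes higher and lower, 0 and 22 further sphingolipid genes higher and lower, and Smpd3 at 4.56 to 4.71. Spots dim in 1 RNA limit the size of a ratio, as for Sphk1.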
